A study of Mus musculus with 13 samples.

Results

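The genes described here encode the subunits of Mediator. Members were the rows whose symbol is Med followed by a number, with or without a final l, together with Cdk8, Cdk19 and Ccnc, and with at least 10 counts in total. There were 33 such genes among 24328 in the files. By the assignment of subunits used here, 7 belonged to the head, 9 to the middle, 9 to the tail and 7 to the kinase module. Med14 is the backbone. Mediator is a large complex that carries signals from transcription factors bound at enhancers and promoters to RNA polymerase II. Factors dock mostly on the tail and on Med1, the head and middle contact the polymerase, and Med14 holds these parts together. The kinase module, made of Cdk8 or Cdk19, cyclin C, Med12 or Med12l, and Med13 or Med13l, binds the core reversibly and blocks its contact with the polymerase while bound. In blood cells and leukemias Mediator is known for its high occupancy at enhancers that are marked by histone acetylation.

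The study compared mouse bone marrow cells in 13 RNA sequencing libraries. Wild-type granulocyte-monocyte progenitors (GMP), leukemia stem cells (LSC) and mature AML cells (mAML) had 1 library each, and the 2 leukemic groups are labelled as tumor. LSC exposed to A-485, a catalytic inhibitor of CBP and p300, which acetylate histones, were sampled at 0, 8, 24, 48 and 72 h with 2 libraries per time. The leukemia carries the fusion MLL-AF10, and its cells were grown in serum and WEHI-conditioned medium. The 0 h libraries are labelled untreated, and no vehicle control was among the samples. Strain, age, the dose of A-485 and whether the 2 libraries of a time came from separate cultures are not given in the sources used here, so p-values measure only the spread between these libraries, which may be technical. The time course libraries held 6467760 to 9763280 counts, against 24532500 in GMP, 40468500 in LSC and 47257600 in mAML.

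Some libraries stood apart or went with changes in cell state. Library 2 at 8 h, library 2 at 24 h and library 1 at 72 h had 68.9, 71.2 and 22.4 CPM of Wnt2, against at most 2.97 in every other library, and their chromosome 14 genes were low. In this paragraph CPM is the count scaled to the library's total alone, and from the A-485 results on it is scaled by TMM factors as well, which were 0.830 and 0.832 at 0 h and 1.03 to 1.07 in treated libraries. Member results against 0 h are given with and without these 3 libraries, as counts at 48 h and as medians at the other times. So are some changes of single genes. The progenitor markers Kit, Cd34, Fcgr3, Mpo and Elane summed to 4131 and 3335 CPM at 0 h and to 281 and 392 CPM at 72 h. The 3 stem cell markers were Kit, Hoxa9 and Meis1, which summed to 301 and 341 CPM at 0 h and 360.2 and 342 CPM at 72 h. Among them Kit was at 167 and 166 CPM at 0 h and at 0.402 and 0 CPM at 72 h, while Hoxa9 was at 104 and 128 CPM and then at 238 and 255 CPM, and Meis1 at 29.3 and 46.5 CPM and then at 122 and 87.4 CPM. The part of this shift in the Mediator results was not tested. In such bulk libraries, fewer cells of a type and less RNA per cell cannot be told apart. The mAML library held all 5 T and NK cell markers above 1 CPM, all 4 B cell markers above 0, and erythroid markers that summed to 999 CPM, against 71.5 CPM in GMP and 2.72 CPM in LSC. The T and NK markers summed to 71.7 CPM in mAML, 69.7 CPM in LSC and 427.1 CPM in GMP. Among them Nkg7 went the other way, at 19.6 CPM in mAML, 69.6 CPM in LSC and 426.8 CPM in GMP.

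RefSeq promoter sequences (build GRCm38.p6) were matched for 28 of the 33 members, and the others were Cdk19, Med8, Med23, Med24 and Med30. The windows shown are the 250 bases before the transcription start, on the strand of the gene, for the 3 kinase module genes that rose at every time, for Med19, the middle gene that did so, and for Med21, which fell. They lie at chr4:21727451-21727700 (Ccnc, plus strand), chrX:101273841-101274090 (Med12, plus), chr11:86357597-86357846 (Med13, minus), chr2:84678152-84678401 (Med19, plus) and chr6:146642329-146642578 (Med21, plus). Capitals mark matches to any motif searched.
Ccnc: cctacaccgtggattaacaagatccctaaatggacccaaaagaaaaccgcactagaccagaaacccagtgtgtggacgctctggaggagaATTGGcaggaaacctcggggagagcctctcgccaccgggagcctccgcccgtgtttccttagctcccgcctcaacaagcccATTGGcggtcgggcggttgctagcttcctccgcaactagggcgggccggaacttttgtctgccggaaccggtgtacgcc
Med12: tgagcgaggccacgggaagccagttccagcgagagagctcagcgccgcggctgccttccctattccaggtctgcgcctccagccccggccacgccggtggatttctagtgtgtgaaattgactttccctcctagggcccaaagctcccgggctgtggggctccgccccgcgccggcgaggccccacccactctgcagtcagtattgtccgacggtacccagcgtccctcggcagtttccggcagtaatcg
Med13: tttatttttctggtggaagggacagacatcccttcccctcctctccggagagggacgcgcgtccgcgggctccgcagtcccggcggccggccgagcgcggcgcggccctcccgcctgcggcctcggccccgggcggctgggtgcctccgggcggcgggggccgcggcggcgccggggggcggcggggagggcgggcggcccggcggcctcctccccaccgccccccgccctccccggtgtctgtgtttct
Med19: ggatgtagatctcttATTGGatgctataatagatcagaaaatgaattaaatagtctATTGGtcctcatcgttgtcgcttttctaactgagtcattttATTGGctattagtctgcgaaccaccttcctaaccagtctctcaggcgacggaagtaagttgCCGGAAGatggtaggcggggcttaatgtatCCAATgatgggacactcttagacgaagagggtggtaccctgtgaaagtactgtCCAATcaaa
Med21: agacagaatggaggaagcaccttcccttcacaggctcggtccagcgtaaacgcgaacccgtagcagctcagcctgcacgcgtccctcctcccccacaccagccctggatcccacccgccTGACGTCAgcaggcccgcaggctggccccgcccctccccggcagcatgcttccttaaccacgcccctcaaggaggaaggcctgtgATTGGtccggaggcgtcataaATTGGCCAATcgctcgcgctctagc

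The motifs searched on both strands were the ETS core CCGGAAG, the CCAAT box CCAAT, the E-box CACGTG, the cyclic AMP response element TGACGTCA, the NRF1 site and the YY1 site AAGATGGCG. Med19 held 5 CCAAT boxes and an ETS core in a window of 42.8% GC, and Ccnc held 2 CCAAT boxes at 59.6% GC. Med21 held 3 CCAAT matches, 2 of which lie next to each other on opposite strands, and the only cyclic AMP response element among the members. The windows of Med12 (66% GC) and Med13 (80% GC) held no match. Of the members higher at all 4 times, Ccnc and Med19 shared the CCAAT box, and Med19 and a window of Med15 shared the ETS core. Over the 32 member windows, 18.8% held the ETS core against 6.91% of all 32851 windows, and 37.5% held CCAAT against 33.8%. The E-box was in 6.25% against 6.02%, the cyclic AMP response element in 3.12% against 1.55%, and the NRF1 and YY1 sites in 0% against 0.782% and 0.606%. These are matches of letters and no evidence of binding.

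All 33 genes were detected, with a wide spread of levels per transcript length. In deposited TPM (a level scaled for length and depth), Med21 was the highest member at 0 h with 90.8 ± 25.3 TPM (SD, n = 2), followed by Med10 with 54.0 ± 4.85 and Med30 with 45.5 ± 5.84. Med12l, the paralog of Med12, was the lowest with 1.02 ± 0.177 TPM. At 72 h Med10, with 95.8 ± 0.156 TPM, and Med30, with 90.2 ± 3.51 TPM, stood above Med21, with 71.0 ± 4.39 TPM. In GMP and LSC, Med21 led again with 180.0 and 143.7 TPM, while in mAML it was at 72.3 TPM, beside Med10 at 75.1 TPM. Med12l was the lowest in all 3 single libraries, at 0.35, 0.18 and 0.05 TPM. The summed TPM of the members was 809 and 771 at 0 h and 1475 and 1406 at 72 h, but TPM rose for genes in general, with an all-gene median of 0.62 at 72 h on the log2(TPM + 1) scale. As TMM-scaled CPM per kilobase, the members summed to 661 and 633 at 0 h and 734 and 742 at 72 h.

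The kinase module took a larger share of the summed Mediator TPM in every library from 24 h on than at 0 h. It held 12.0% and 12.6% at 0 h, 12.8% and 14.8% at 8 h, 18.3% and 15.8% at 24 h, 19.2% and 18.02% at 48 h, and 17.8% and 17.9% at 72 h. The lowest treated library, at 8 h, thus lay just above both 0 h libraries. The middle module went from 36.2% and 34.0% at 0 h to 27.0% and 28.8% at 72 h, with no overlap, and the tail from 28.5% and 29.9% to 33.1% and 32.3%. The head stayed between 19.0% and 21.8% in all 10 libraries. Without treatment, the kinase module held 11.6% (GMP), 12.6% (LSC) and 12.7% (mAML). A share per TPM can rise because other members fall, and it carries no test here.

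**Figure D1:**
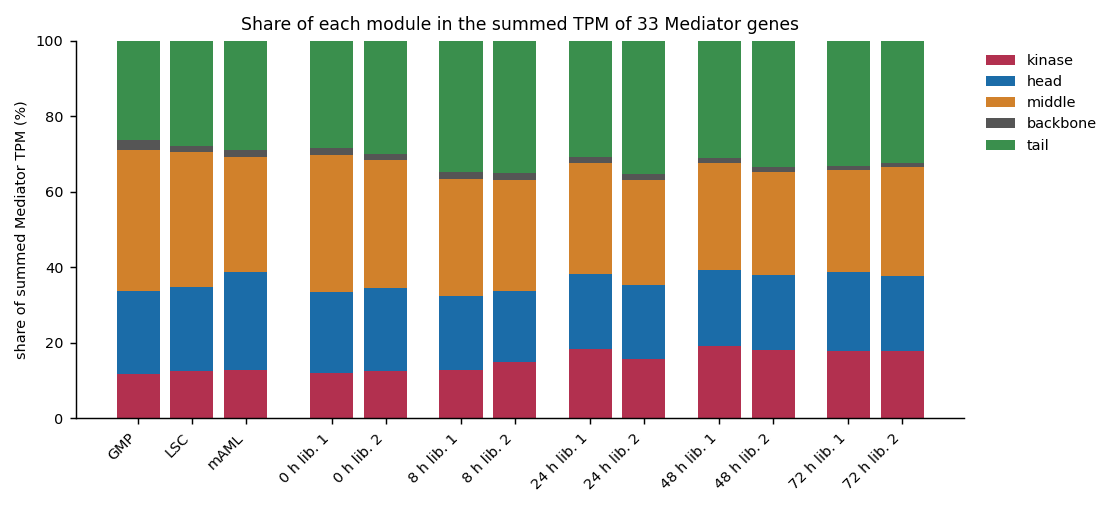
Share of each module in the summed TPM of the 33 Mediator genes, in percent, as stacked bars for the 3 single libraries and the 10 libraries of the A-485 time course. The kinase module, at the bottom of each bar, holds 12.0% and 12.6% at 0 h and 17.8% and 17.9% at 72 h.

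In LSC exposed to A-485, 10 of the 33 genes rose at 8 h and 0 fell. A gene was called at an adjusted p under 0.05 in edgeR's quasi-likelihood test with Benjamini-Hochberg adjustment over 11119 genes. Of all genes tested, 17.9% were higher and 21% were lower at 8 h, 38.9% in all. At 24 h 8 members were higher and 3 lower, beside 23.2% and 27.1% of all genes, 50.3% together. At 48 h 10 were higher and 5 lower, beside 25.2% and 30.5% (55.6% together), and at 72 h 11 were higher and 3 lower, beside 25.9% and 29.4% (55.3% together). The share of members called higher was above the background at 8 h and close to it at 24 and 48 h, and the share called lower was below the background at all 4 times. The median log2 change of the members was 0.31, 0.11, 0.10 and 0.16 at 8, 24, 48 and 72 h, beside 0.01, -0.03, -0.04 and -0.02 for all genes. Med12, Med13, Ccnc, Med15, Med19 and Med23 were higher at all 4 times, no member was lower at all 4, and 13 members were called at no time. Over the treated times together, 14 members (11 higher and 3 lower by their mean change) differed from 0 h, beside 59.8% of all genes.

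These counts depend on the scaling and on a few libraries. Scaling to library size alone shifted the all-gene median by 0.33, 0.28, 0.31 and 0.35 at the 4 times and gave 20 higher and 0 lower, 15 and 2, 19 and 1, and 21 and 1 members, so that 88.2%, 95% and 95.5% of the member calls at 24, 48 and 72 h were higher, against 72.7%, 66.7% and 78.6% with TMM scaling. Of all calls, 67.5%, 65.4% and 67.4% were higher with library size alone, against 46.2%, 45.2% and 46.8% with TMM. Of all genes, library size alone called 36.7% higher and 13.7% lower at 8 h, and 37.5% and 18.1% at 24 h. At 48 h it called 39.7% and 21%, and at 72 h 41.5% and 20%. Relative to all genes, the members' median stayed at 0.29, 0.14, 0.14 and 0.18. At 8 h it was 0.26 without library 2 at 8 h and 0.305 without library 1 at 0 h. The fits that leave out 1 library, given next, called fewer of all genes tested as well at the times named. Without library 2 at 8 h, 5 members were higher at 8 h, and without library 1 at 0 h, 6 were; without the latter library 5 were higher at 24 h, and 0, 1 and 0 were lower at 24, 48 and 72 h. Without library 2 at 24 h 1 was lower at 24 h, and without library 1 or 2 at 48 h 2 and 1 were lower at 48 h. The 3 libraries low in chromosome 14 genes were chosen after seeing the data. Without them, 12 members were higher and 5 lower at 48 h, beside 29.3% and 34.9% of all genes. At 8, 24 and 72 h that fit leaves 1 library, and it called fewer members there. The members' median relative to all genes was then 0.26 at 8 h, 0.115 at 24 h and 0.20 at 72 h.

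**Figure D2:**
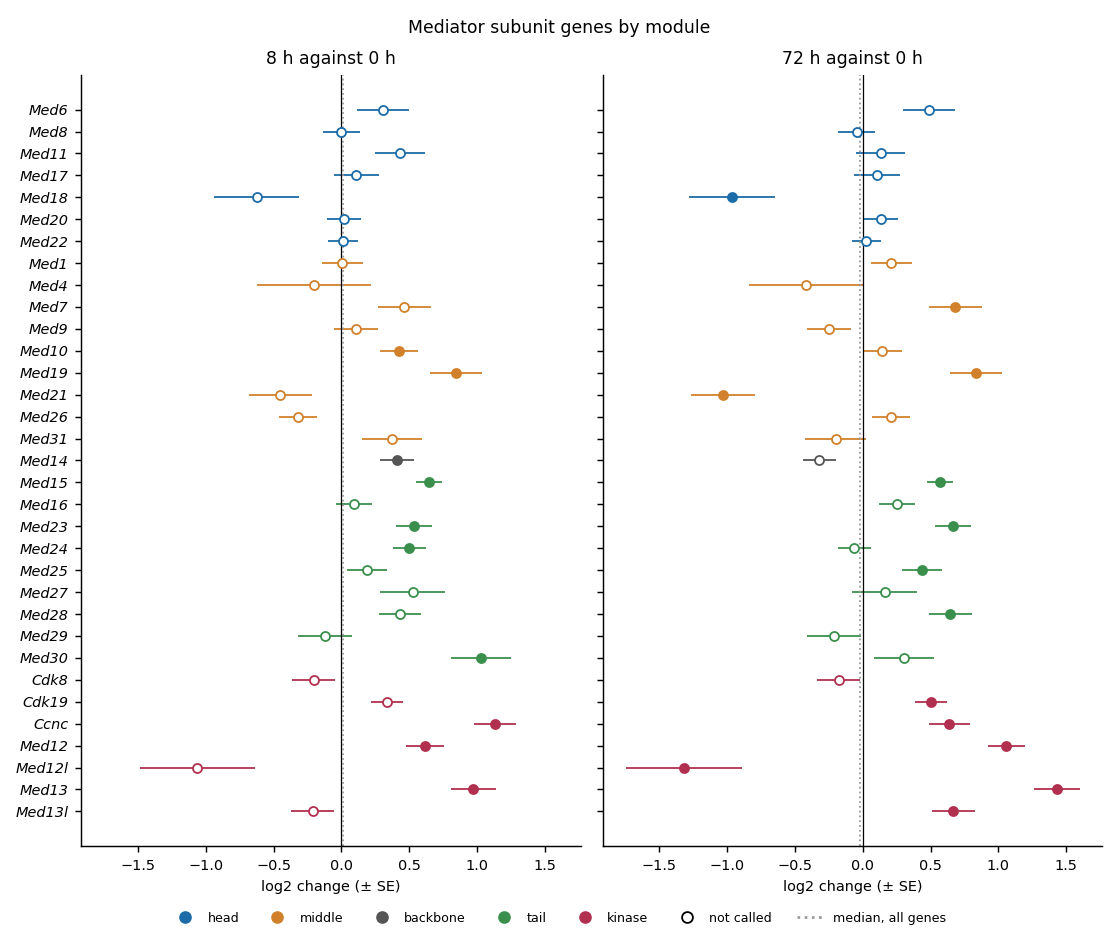
Log2 change of each Mediator gene at 8 h (left) and 72 h (right) against 0 h, with the standard error as a bar, coloured by module; filled points are called at an adjusted p under 0.05 and the dotted line is the median of all genes tested. The kinase module genes Med13, Med12 and Ccnc lie to the right at both times, while Med12l, Med21 and Med18 lie to the left.

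The kinase module held the largest rise at each of 8, 24, 48 and 72 h, and the largest called fall at 48 and 72 h. Of its 7 genes, 3 were higher and 0 lower at 8 h, and 5 were higher and 1 lower at each of 24, 48 and 72 h. Of all genes, 17.9% were higher and 21% lower at 8 h, and 23.2% and 27.1% at 24 h. At 48 h these shares were 25.2% and 30.5%, and at 72 h 25.9% and 29.4%. Its median log2 change was 0.33, 0.56, 0.59 and 0.64. Med13, which tethers the module to the core of Mediator, was at 117 and 109 CPM at 0 h, 188 and 257 at 8 h, 263 and 281 at 24 h, 318 and 282 at 48 h, and 340.2 and 270.0 CPM at 72 h. All 8 treated libraries lay above both 0 h libraries. Its log2 change was 0.97 ± 0.17 (SE) at 8 h (edgeR adjusted p = 0.00253) and 1.43 ± 0.17 at 72 h (edgeR adjusted p = 0.000187), the largest rise of any member. Med12, which activates the kinase, was at 109 and 105 CPM at 0 h, 168 and 160.5 at 8 h, 183 and 152 at 24 h, 222 and 222 at 48 h, and 196 and 251 CPM at 72 h, again without overlap. It rose by 0.62 ± 0.14 at 8 h (edgeR adjusted p = 0.00817) and by 1.06 ± 0.14 at 72 h (edgeR adjusted p = 0.000308).

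Ccnc, which encodes cyclin C, the partner of both kinases, had an early peak. It was at 29.9 and 27.0 CPM at 0 h, 56.0 and 68.9 at 8 h, 43.8 and 47.5 at 24 h, 43.1 and 37.6 at 48 h, and 46.2 and 42.5 CPM at 72 h. The 8 h libraries lay above all others. Its log2 change was 1.13 ± 0.15 at 8 h (edgeR adjusted p = 0.00082), the largest rise of any member at that time, and 0.64 ± 0.15 at 72 h (edgeR adjusted p = 0.00731). Med13l, the paralog of Med13, was late instead. It was at 135 and 131 CPM at 0 h, 108 and 122 at 8 h, 216 and 158 at 24 h, 266 and 218 at 48 h, and 218 and 205 CPM at 72 h. At 8 h both libraries lay below 0 h, with a log2 change of -0.21 ± 0.16 that was not called, and at 72 h Med13l had risen by 0.67 ± 0.16 (edgeR adjusted p = 0.00695).

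The 2 kinases differed from each other in their values. Cdk19 was at 120.1 and 121 CPM at 0 h, 137 and 167 at 8 h, 187 and 168 at 24 h, 190.2 and 174 at 48 h, and 168 and 173 CPM at 72 h, and no treated library overlapped 0 h. Its log2 change of 0.33 ± 0.12 at 8 h just missed the threshold (edgeR adjusted p = 0.0502), and at 72 h it had risen by 0.50 ± 0.12 (edgeR adjusted p = 0.00651). Cdk8 was at 31.9 and 38.7 CPM at 0 h, 30.7 and 30.6 at 8 h, 28.4 and 23.7 at 24 h, 31.97 and 31.5 at 48 h, and 29.1 and 33.3 CPM at 72 h. It was called lower only at 24 h, by -0.44 ± 0.16 (edgeR adjusted p = 0.0495), and that call was lost without the 3 libraries low in chromosome 14 genes (-0.31) and with scaling to library size alone (-0.13). Its direction depended on the scale, since it rose at 72 h on the log2(TPM + 1) scale (0.51, limma adjusted p = 0.0173). Med12l was the least abundant member, with 10.3 and 8.08 CPM at 0 h, 5.41 and 3.36 at 8 h, 6.59 and 5.46 at 24 h, 5.15 and 2.47 at 48 h, and 3.26 and 4.07 CPM at 72 h. All treated libraries lay below both 0 h libraries, and its fall of -1.32 ± 0.43 at 72 h (edgeR adjusted p = 0.0283) was the largest of any member. The call was lost on leaving out any single library of 0 h or 72 h, with values of -1.10 to -1.49. It was also lost without the 3 libraries low in chromosome 14 genes (-1.17).

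**Figure D3:**
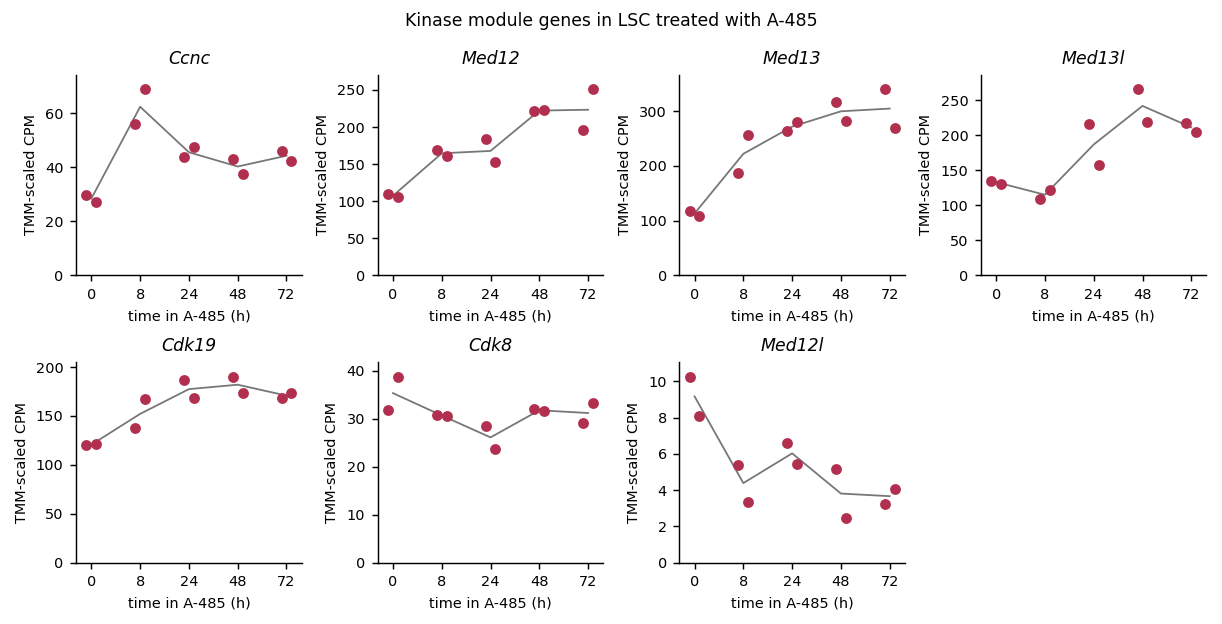
TMM-scaled CPM of the 7 kinase module genes in each library of the A-485 time course, with points for the 2 libraries of a time and a line through their means; each vertical axis starts at 0. Ccnc is highest at 8 h (56.0 and 68.9 CPM), Med12, Med13, Med13l and Cdk19 are higher from 24 h on, and Med12l falls from 10.3 and 8.08 to 3.26 and 4.07 CPM.

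Part of the rise of the kinase module went with transcript length. Most of its genes are long, from 5798 nt for Cdk19 to 11787 nt for Med13, but Cdk8 (2586 nt) and Ccnc (2713 nt) are not. The mean transcript length per read rose from 3128 and 3115 nt at 0 h to 3786 and 3670 nt at 72 h over all genes. With the trend of the change on transcript length removed, the module's median at 72 h was 0.24 in place of 0.64. Med13 was still higher at 8 h (0.76) and 72 h (0.89) in that fit, whereas Med13l (0.24) and Cdk19 (0.24) were no longer called at 72 h, and Med13l was called lower at 8 h (-0.38). Among the short members, Med21 (780 nt) was at -0.49 and not called at 72 h, and Med6, Med10, Med11 and Med30, of 862 to 1004 nt, were called higher (0.92, 0.65, 0.62 and 0.80). The members called were then 11 higher and 1 lower at 8 h, 7 and 1 at 24 h, 15 and 2 at 48 h, and 13 and 2 at 72 h. Of all genes, that fit called 19.3% higher and 20.4% lower at 8 h, and 23.4% and 25.1% at 24 h. At 48 h it called 25.1% and 27.8%, and at 72 h 25.6% and 28.3%. Whether the length trend is technical or biological was not tested.

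The tail, the part on which many activators dock, held 4 higher and 0 lower of 9 genes at 8 h. It held 2 and 0 at 24 h, 4 and 1 at 48 h, and 4 and 0 at 72 h. Of all genes, 17.9% were higher and 21% lower at 8 h, and 23.2% and 27.1% at 24 h. At 48 h these shares were 25.2% and 30.5%, and at 72 h 25.9% and 29.4%. The 2 of 9 higher at 24 h were close to the share of all genes. Med15, a target of several activators, was at 78.9 and 75.8 CPM at 0 h, 123 and 119 at 8 h, 112 and 115 at 24 h, 120.4 and 119 at 48 h, and 120.2 and 109 CPM at 72 h. The treated libraries formed a plateau with no overlap with 0 h, and Med15 rose by 0.65 ± 0.09 at 8 h (edgeR adjusted p = 0.00118) and by 0.57 ± 0.09 at 72 h (edgeR adjusted p = 0.00119). Med23, which growth factor signalling reaches through the ETS factor ELK1, was at 48.9 and 55.4 CPM at 0 h, 71.0 and 80.0 at 8 h, 67.4 and 70.9 at 24 h, 85.2 and 78.2 at 48 h, and 89.8 and 76.0 CPM at 72 h. It rose by 0.53 ± 0.13 at 8 h (edgeR adjusted p = 0.0133) and by 0.67 ± 0.13 at 72 h (edgeR adjusted p = 0.00297). Its call at 8 h was lost without library 1 at 0 h (0.49) or library 2 at 8 h (0.45).

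Med30, a subunit found in animals, was highest at 8 h. It was at 22.4 and 26.9 CPM at 0 h, 53.2 and 47.1 at 8 h, 21.8 and 32.2 at 24 h, 23.8 and 31.2 at 48 h, and 28.7 and 32.1 CPM at 72 h. The change was 1.03 ± 0.22 at 8 h (edgeR adjusted p = 0.00713) and 0.30 ± 0.22 at 72 h, which was not called, although it was called at 72 h with the length trend removed and with library-size scaling (0.67). Med24 was higher at 8 h only (0.50 ± 0.12), and Med25, which activators such as viral VP16 bind, and Med28 were higher at 48 and 72 h, with 0.44 ± 0.15 and 0.65 ± 0.16 at 72 h. Med29 was the tail gene called lower at 48 h, with 21.0 and 16.6 CPM at 0 h and 11.8 and 12.9 CPM at 48 h, a log2 change of -0.61 ± 0.20 (edgeR adjusted p = 0.0304). Med16 and Med27 were called at no time.

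In the middle module, 2 genes were higher and 0 lower of 9 at 8 h. The counts were 1 and 1 at 24 h, 1 and 1 at 48 h, and 2 and 1 at 72 h. They were close to or below the shares of all genes. Those were 17.9% higher and 21% lower at 8 h, and 23.2% and 27.1% at 24 h. At 48 h they were 25.2% and 30.5%, and at 72 h 25.9% and 29.4%. Med19 was at 28.4 and 30.4 CPM at 0 h, 45.3 and 60.3 at 8 h, 35.5 and 48.8 at 24 h, 42.9 and 44.7 at 48 h, and 54.7 and 50.4 CPM at 72 h, all treated values above 0 h. It rose by 0.85 ± 0.19 at 8 h (edgeR adjusted p = 0.00894) and by 0.84 ± 0.19 at 72 h (edgeR adjusted p = 0.00594); the 8 h call was lost without library 1 at 0 h (0.84, adjusted p = 0.0501) or library 2 at 8 h (0.63, adjusted p = 0.0597). Med21, which pairs with Med7 at the hinge of the middle module, went the other way. It was at 49.9 and 33.6 CPM at 0 h, 32.5 and 28.6 at 8 h, 22.3 and 18.2 at 24 h, 21.9 and 16.4 at 48 h, and 18.9 and 21.9 CPM at 72 h. The 0 h libraries differed from each other more than those of any later time, and all treated libraries lay below them. Med21 fell by 1.03 ± 0.24 at 72 h (edgeR adjusted p = 0.0059), but by 0.68 without library 1 at 0 h, which was not called (edgeR adjusted p = 0.0646).

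Med7, the partner of Med21, moved oppositely, from 17.2 and 22.4 CPM at 0 h to 25.1 and 29.4 at 8 h, 24.3 and 28.0 at 24 h, 27.0 and 28.7 at 48 h, and 35.3 and 28.2 CPM at 72 h. It was called at 72 h (0.68 ± 0.19, edgeR adjusted p = 0.0163). That call was lost without library 1 at 0 h (0.54) or library 1 at 72 h (0.52). It was also lost without the 3 libraries low in chromosome 14 genes (0.52). Med1, the docking site of nuclear receptors and GATA factors, was not called at any time. Its levels were 73.1 and 81.2 CPM at 0 h, 70.1 and 85.0 at 8 h, 83.9 and 66.9 at 24 h, 82.6 and 76.3 at 48 h, and 93.7 and 84.9 CPM at 72 h, with overlap at every time but the last. Med26, which recruits elongation factors, was at 34.6 and 31.9 CPM at 0 h, 28.2 and 25.2 at 8 h, 32.5 and 33.7 at 24 h, 33.3 and 38.4 at 48 h, and 37.7 and 39.0 CPM at 72 h. Neither its dip at 8 h (-0.32 ± 0.14) nor its level at 72 h (0.21 ± 0.14) was called against 0 h. With library-size scaling, Med1 (0.58) and Med26 (0.57) were called higher at 72 h.

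Med14, the backbone on which head, middle and tail assemble, changed direction. It was at 81.8 and 68.4 CPM at 0 h, 99.4 and 100.045 at 8 h, 74.4 and 71.1 at 24 h, 61.6 and 54.3 at 48 h, and 58.9 and 61.5 CPM at 72 h. The 8 h libraries lay above 0 h and the 48 and 72 h libraries below it. It was higher at 8 h (0.41 ± 0.12, edgeR adjusted p = 0.0293) and lower at 48 h (-0.37 ± 0.13, edgeR adjusted p = 0.0315), while -0.32 ± 0.12 at 72 h was not called. Its position against 0 h depended on the scale, since at 72 h it was 0.05 with library-size scaling, 0.41 on the log2(TPM + 1) scale (limma adjusted p = 0.0345) and -0.62 with the length trend removed (edgeR adjusted p = 0.00325). Its 8 h call was lost with the length trend removed (0.30) and without library 2 at 0 h (0.33), library 1 at 8 h (0.43) or library 2 at 8 h (0.41). The same held without the 3 libraries low in chromosome 14 genes (0.41).

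The head, which contacts the polymerase, had fewer calls than the middle, tail or kinase module. None of its 7 genes was higher at any time with TMM scaling, and Med18 alone was lower. Of all genes, 17.9% to 25.9% were higher and 21% to 30.5% lower at these times. Med27 to Med30 are counted in the tail here and in the head in an alternative below. Of them, Med30 was called higher at 8 h, Med28 higher at 48 and 72 h, and Med29 lower at 48 h. With library-size scaling 3 head genes were higher at 8 h (Med6, Med11, Med22), 1 at 24 h (Med20), 4 at 48 h (Med11, Med17, Med20, Med22) and 5 at 72 h (these 4 and Med6), and Med18 was called lower at 24 h only. That scaling called 36.7%, 37.5%, 39.7% and 41.5% of all genes higher at the 4 times, and 18.1% lower at 24 h. With the length trend removed, Med11 was higher at 8 h, Med20 at 24 h, Med6, Med11 and Med20 at 48 h, and Med6 and Med11 at 72 h. Of all genes, 19.3%, 23.4%, 25.1% and 25.6% were higher in that fit. Med18 was at 19.3 and 13.6 CPM at 0 h, 12.2 and 9.18 at 8 h, 8.43 and 5.70 at 24 h, 8.67 and 7.54 at 48 h, and 7.01 and 9.81 CPM at 72 h. All treated libraries lay below both 0 h libraries. It fell by 1.22 ± 0.32 at 24 h (edgeR adjusted p = 0.0128), 1.02 ± 0.32 at 48 h (edgeR adjusted p = 0.0242) and 0.97 ± 0.32 at 72 h (edgeR adjusted p = 0.0292). The 72 h call was lost without library 1 at 0 h (-0.66) and without library 1 at 72 h (-0.75). It was also lost without the 3 libraries low in chromosome 14 genes (-0.75). The other 6 head genes had log2 changes from -0.22 to 0.49 against 0 h, with Med17, the central head subunit, between 60.5 and 76.1 CPM in all 10 libraries.

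From 8 h to 72 h, 3 members rose and 4 fell, beside 15.1% and 17.2% of all genes. Med13l (0.88 ± 0.16), Med26 (0.52 ± 0.14) and Med12 (0.44 ± 0.14) were higher at 72 h than at 8 h, with edgeR adjusted p of 0.00377, 0.0207 and 0.0364. Med14 (-0.73 ± 0.12), Med30 (-0.72 ± 0.22), Med24 (-0.56 ± 0.12) and Ccnc (-0.50 ± 0.15) were lower, with edgeR adjusted p of 0.00286, 0.0338, 0.00837 and 0.0339. Members thus had an early and a late pattern, with Ccnc, Med14, Med24 and Med30 highest at 8 h and Med13l and Med12 highest at 48 or 72 h. Fits without 1 library of 8 or 72 h called fewer members and fewer of all genes. The members' median relative to all genes was 0.009 with all libraries and 0.001 without library 2 at 8 h. It was 0.009 without library 2 at 72 h and -0.04 without library 1 at 72 h.

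The balance of the paralogs in the kinase module shifted, as read from TPM ratios, which carry no test. Cdk19 was at 1.58 and 1.31 times the level of Cdk8 at 0 h, 1.88 and 2.29 times at 8 h, 2.77 and 2.97 times at 24 h, 2.48 and 2.32 times at 48 h, and 2.43 and 2.20 times at 72 h. The treated libraries lay above 0 h throughout. The ratio of Med13l to Med13 was 1.47 and 1.53 at 0 h, 0.736 and 0.605 at 8 h, 1.04 and 0.719 at 24 h, 1.07 and 0.987 at 48 h, and 0.816 and 0.969 at 72 h, so Med13l was the more abundant paralog at 0 h and the less abundant at 8 and 72 h. Med12l was a small part throughout, at 0.0770 and 0.0629 of Med12 at 0 h and at 0.0136 and 0.0133 at 72 h. Among the single libraries, the ratio of Cdk19 to Cdk8 was 4.04 in LSC, 3.15 in mAML and 1.21 in GMP, and that of Med13l to Med13 was 2.71, 1.87 and 1.31. The LSC library thus had a higher ratio of Cdk19 to Cdk8 than the untreated 0 h libraries, although both are labelled leukemia stem cells.

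Med4, a subunit of the middle module, was the only member on chromosome 14 (RefSeq GRCm38) and was singled out after its values were seen. It was at 34.5 and 34.0 CPM at 0 h, 40.6 and 19.0 at 8 h, 28.1 and 13.3 at 24 h, 34.5 and 28.9 at 48 h, and 19.5 and 31.6 CPM at 72 h. The low values came from the 3 libraries with high Wnt2. Against the other library of its time, Med4 was at -1.085, -1.07 and -0.69 on the log2 scale in them, beside medians of -0.71, -0.66 and -0.38 over 348 chromosome 14 genes. At 0 and 48 h these medians were -0.003 and -0.006, and those of the other chromosomes lay from -0.074 to 0.066 at all 5 times. The median of the other 32 members differed by 0.03, 0.10 and 0.08 in the 3 libraries. Med4 was called at no time, and its change at 8 h was -0.20 ± 0.42 with all libraries and 0.25 without the 3 (edgeR adjusted p = 0.299).

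**Figure D4:**
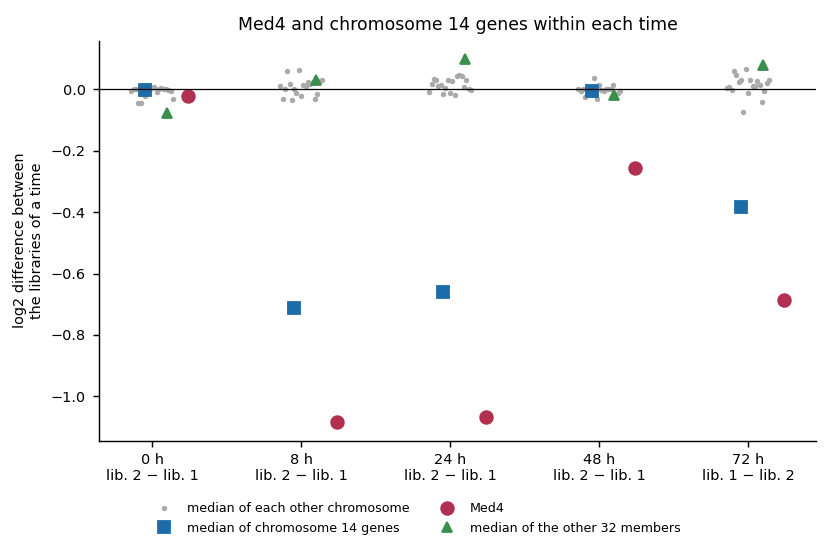
Log2 difference between the 2 libraries of each time for Med4, for the median of chromosome 14 genes, for the median of every other chromosome and for the median of the other 32 Mediator genes. In the libraries with high Wnt2, at 8, 24 and 72 h, Med4 lies at -1.085, -1.07 and -0.69 and the chromosome 14 median at -0.71, -0.66 and -0.38.

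Genes that lie near Med4 on chromosome 14 had lower levels in the same 3 libraries. Rb1, which encodes the retinoblastoma protein, was at 113 and 70.4 CPM at 8 h, 142 and 68.6 at 24 h and 112 and 141 CPM at 72 h. Itm2b was at 1141 and 684 CPM, 2452 and 1349 CPM, and 1811 and 2453 CPM at these times. Sucla2, an enzyme of the citric acid cycle, was at 98.7 and 60.3, 72.1 and 48.5, and 42.2 and 67.0 CPM. In each pair the lower value was in the library low in Med4. At 48 h, where neither library was high in Wnt2, library 2 was also the lower. Rb1 was then at 176 and 142 CPM, Itm2b at 2759 and 2441 CPM and Sucla2 at 75.3 and 64.1 CPM. The order was mixed at 0 h, with Rb1 at 79.1 and 85.7 CPM, Itm2b at 2604 and 2183 CPM and Sucla2 at 77.3 and 79.0 CPM.

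In the single libraries, 3 pairs of cell types were compared. Each cell type has 1 library, so there is no replicate check, and brackets hold the 95% exact binomial interval, which covers counting error only. Of 31 members that reached 10 CPM in either library, 6 were at least 1.5-fold higher in LSC than in GMP and 1 was lower, beside 21.4% and 17.3% of 9018 genes, and none was 2-fold apart, beside 10.9% higher and 8.13% lower. The 6 were Med13l, Cdk19, Med10, Med16, Med27 and Med31, and the lower gene was Cdk8. Cdk8 had 20.7 CPM in LSC against 39.9 in GMP, or -0.94 on the log2 scale [-1.08, -0.81]. Its paralog Cdk19 was at 194 and 112 CPM, a log2 ratio of 0.80 [0.74, 0.86], and Med13l was at 178 and 93.0 CPM, a log2 ratio of 0.93 [0.87, 1.0008]. Scaling to library size alone gave 3 members 1.5-fold higher and 1 lower, with that 1 also 2-fold lower.

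Between mAML and LSC no member was 1.5-fold higher and 2 were lower, Med21 and Med9, beside 19.9% and 16.2% of 9135 genes. None was 2-fold apart, beside 12.7% higher and 7% lower. Med21 had 33.3 CPM in mAML against 62.4 in LSC (-0.90 [-1.0003, -0.81]). Between mAML and GMP, 5 of 30 members were 1.5-fold higher and 4 lower, beside 28.5% and 24.2% of 9300 genes, and 1 was 2-fold higher and 2 lower, beside 19.2% and 12.5%. At 1.5-fold, library size alone gave 2 higher and 8 lower, and the log2(TPM + 1) scale 1 higher and 9 lower. The member 2-fold higher with TMM scaling was Med10, with 39.2 CPM in mAML against 18.8 in GMP (1.05 [0.91, 1.20]). On both other scales 0 members were 2-fold higher. The 2 members 2-fold lower with TMM scaling were Med21, with 33.3 and 67.7 CPM (-1.02 [-1.12, -0.92]), and Cdk8, with 19.6 and 39.9 CPM (-1.02 [-1.16, -0.90]). The part of the lymphoid and erythroid RNA in the mAML library in these ratios was not tested.

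**Figure D5:**
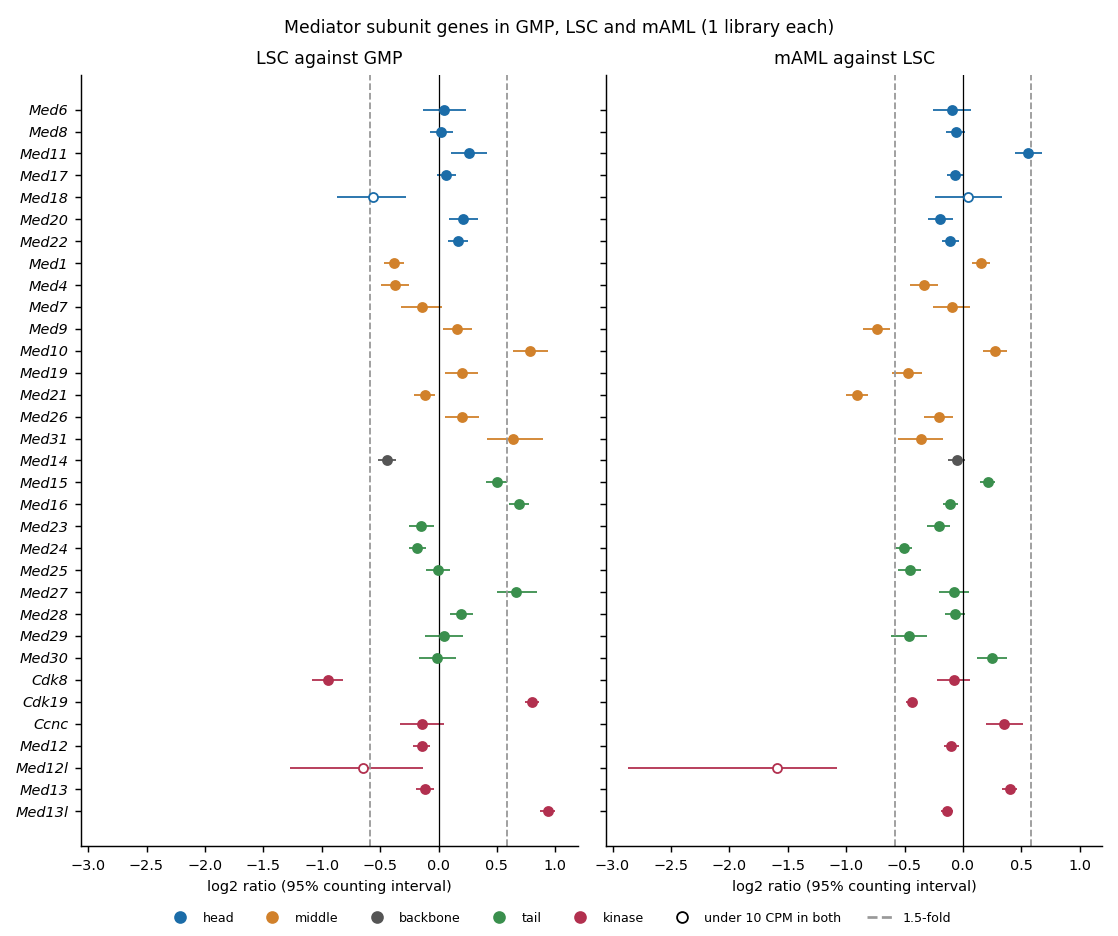
Log2 ratio of TMM-scaled CPM of each Mediator gene in LSC against GMP (left) and in mAML against LSC (right), 1 library each, with 95% counting intervals as bars; open points are under 10 CPM in both libraries and dashed lines mark 1.5-fold. Cdk8 lies at -0.94 and Cdk19 and Med13l at 0.80 and 0.93 on the left, and Med21 lies at -0.90 on the right.

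The genes of RNA polymerase II, the general transcription factors and cohesin, which work beside Mediator, held calls in both directions. The background is that of the Mediator genes, with 17.9% of all genes higher and 21% lower at 8 h, 23.2% and 27.1% at 24 h, 25.2% and 30.5% at 48 h, and 25.9% and 29.4% at 72 h. Of 13 polymerase II subunits, 2 were higher and 1 lower at 8 h, 1 and 4 at 24 h, 1 and 6 at 48 h, and 1 and 5 at 72 h. Polr2a, the catalytic subunit, was at 242 and 246 CPM before treatment, 439.9 and 528 at 8 h and 473 and 403 at 72 h. It rose by 0.99 ± 0.13 at 8 h (edgeR adjusted p = 0.000728) and was called higher at every time. Polr2h went the other way, with 30.4 and 26.0 CPM before treatment, 16.1 and 16.7 at 8 h and 10.9 and 10.4 at 72 h, with -0.78 ± 0.20 at 8 h (edgeR adjusted p = 0.0149). Polr2l rose at 8 h by 0.50 ± 0.17 (edgeR adjusted p = 0.0432) but was called lower at 48 h (-0.56 ± 0.17, edgeR adjusted p = 0.0228).

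Of 31 general transcription factor genes, which assemble with polymerase II at promoters, 7 were higher and 6 lower at 8 h. The counts were 7 and 9 at 24 h, 4 and 11 at 48 h, and 5 and 10 at 72 h. The 13 of 31 called at 8 h were close to the 38.9% of all genes. For these genes and for cohesin, the shares of all genes higher and lower are those given for the polymerase subunits. At 8 h the TFIID subunit gene Taf13 rose by 0.98 ± 0.15 and the TFIIA gene Gtf2a1 by 0.94 ± 0.16, while Gtf2h1 of TFIIH fell by 0.72 ± 0.12. Of 11 genes of cohesin, its loader and its release factors, which hold enhancer and promoter loops with Mediator, 6 were higher and 0 lower at 8 h, 4 and 2 at 24 h, 5 and 2 at 48 h, and 6 and 2 at 72 h. Stag1, a cohesin subunit, was at 58.2 and 58.1 CPM at 0 h, 123 and 135 CPM at 8 h and 71.5 and 78.5 CPM at 72 h, a rise of 1.15 ± 0.12 at 8 h (edgeR adjusted p = 0.000253). The loader genes Mau2 (0.62 ± 0.14 at 8 h) and Nipbl (0.57 at 8 h) were called higher at all 4 times, Ctcf rose by 0.51 ± 0.09 at 8 h, and Smc1a was called lower from 24 h on (-1.15 at 72 h). The median log2 change at 72 h was 0.29 for the cohesin list, -0.25 for polymerase II, -0.02 for the general factors and 0.16 for the Mediator genes.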

How the data were processed

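Poly(A) or other RNA selection is not given in the sources used here; libraries followed standard Illumina protocols. Per the submitters' processing notes, STAR, RSEM and build mm9 were used, with versions not given. Per the file headers, each deposited file holds an expected count per gene, which is an estimated read number not scaled to depth, and a TPM scaled for length and depth. Expected counts were rounded to whole numbers. edgeR 4.0.16 in R 4.3.3 (TMM scaling, filterByExpr, quasi-likelihood test, time as a factor, 10 libraries in 1 model, Benjamini-Hochberg over 11119 genes) gave log2 changes; the standard error is the absolute change divided by the square root of F. All 33 members passed the filter. Ratios of single libraries used CPM after TMM scaling and 5 as the prior count. limma 3.58.1 and DESeq2 1.42.0 were alternatives. The test was checked on simulated counts with few changed genes, balanced up and down, so the check does not cover the choice of scaling. Members and lists were chosen with earlier results of these data known. The genes named with every value were the kinase module, Med1, Med14, Med15, Med23, Med26, and up to 5 called rises and 5 called falls at 8 and 72 h without overlap with 0 h; pathway genes were up to 3 per list by adjusted p at 8 h. Nipbl, Smc1a and the neighbours of Med4 were added after their values were seen.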

Additional observations from a re-analysis of the deposited data

Results flagged for a closer look

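For 7 members the change from 0 h to 8 h differed from the change from 0 h to 72 h, by the direct edgeR test of 72 h against 8 h with adjustment over all genes. On the log2 scale, 72 h was above 8 h by 0.52 for Med26, 0.44 for Med12 and 0.88 for Med13l, and it was below 8 h by -0.73 for Med14, -0.56 for Med24, -0.72 for Med30 and -0.50 for Ccnc. In all 7 genes the 2 libraries of 1 time lay beyond both of the other.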

How the results depend on the processing

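The changes of Med13, Med12, Ccnc, Med15, Med19 and Med23 at 72 h and of Med13, Ccnc, Med15 and Med30 at 8 h kept their direction and call in all 21 alternatives run. The 8 h change of Med12 did so in all but the replicate block with the length trend removed (0.47). Counts of members moved most with the scale. On the log2(TPM + 1) and log2(TPM + 0.1) scales limma called 25 members higher at 8 h, 22 at 24 h, 26 at 48 h and 29 at 72 h (beside 43.7%, 45.9%, 52.2% and 54.9% of all genes with the pseudocount of 1), and 0 lower at 24, 48 and 72 h, with 9 higher and 1 lower for 72 h against 8 h and 27 over the treated times together; the medians of all genes there were 0.41 to 0.62 with the pseudocount of 1. Library size alone gave 20, 15, 19 and 21 members higher, beside 36.7%, 37.5%, 39.7% and 41.5% of all genes. It gave 1 lower at 48 h and 1 at 72 h, beside 21% and 20% of all genes. With the length trend removed, 1 was lower at 8 h, 1 at 24 h and 2 at 48 h, and with the replicate block as well 2 were lower at 8 h and 2 at 48 h. No filter and DESeq2 each gave 3 lower at 48 h, beside 20.6% and 28.9% of all genes. With 2 times only in the fit, 5 were higher at 24 h, beside 21.1% of all genes. That setting gave 1 higher for 72 h against 8 h, beside 9.95% of all genes. Leaving out each library in turn gave 5 to 12 members higher at 8 h, 5 to 8 at 24 h, 7 to 10 at 48 h and 9 to 11 at 72 h. It gave 0 to 4 lower at 24 h, 1 to 5 at 48 h and 0 to 3 at 72 h, 1 to 3 higher and 1 to 4 lower for 72 h against 8 h, and 8 to 14 over the treated times together. The cause was not tested, except that these fits hold fewer libraries and assume that a lone library varies like the others.

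Whether the replicate numbers pair the libraries was not settled. Of 10 pairs of times, 3 had a correlation over 0.1 and 2 under -0.1 (range -0.41 to 0.64). The largest were 0.64 for 8 and 24 h, -0.40 for 8 and 72 h and -0.41 for 24 and 72 h. These are the times with a library high in Wnt2. The other pairs lay from 0.02 to 0.15, and the check cannot tell whether libraries were paired. The replicate block gave 10 higher and 0 lower at 8 h, 8 and 2 at 24 h, 10 and 5 at 48 h, and 11 and 3 at 72 h.

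Changes that were not called reversed in places. At 8 h Med1 was at -0.0546 with the length trend removed, -0.0546 with the replicate block as well, -0.02 without library 1 at 0 h, -0.13 to 0.16 over all single libraries left out and -0.13 without the 3 libraries. Med4 at 8 h was 0.12 with library size alone, -0.83 to 0.25 over single libraries left out, 0.25 without the 3 libraries, and 0.14 and 0.14 on the TPM scales. On the TPM scales with pseudocounts of 1 and 0.1, Med21 was at 0.0106 and 0.0109, Med26 at 0.12 and 0.13, Cdk8 at 0.24 and 0.25 and Med13l at 0.23 and 0.24 at 8 h, and Med4 at 0.23 and 0.24, Med14 at 0.41 and 0.44 and Cdk8 at 0.51 and 0.53 at 72 h. With library size alone Cdk8 was at 0.11 and Med13l at 0.10 at 8 h, and Med14 at 0.0461 and Cdk8 at 0.19 at 72 h. With single libraries left out, Cdk8 at 72 h ranged from -0.28 to 0.00501, the latter without library 2 at 0 h.

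In the single libraries, library size alone gave 3 members 1.5-fold higher and 1 member 2-fold lower in LSC than in GMP, and 2 higher, 8 lower and 0 2-fold higher in mAML than in GMP. On the log2(TPM + 1) scale 1 member was 1.5-fold higher, 4 lower and 1 2-fold lower in LSC than in GMP, and 1 was higher, 9 lower and 0 2-fold higher in mAML than in GMP. A minimum of 1 CPM gave 2 members 1.5-fold lower in LSC than in GMP and 1 member 2-fold lower in mAML than in LSC. The shares of all genes at these settings are not given here, so these counts have no background. With Med27 to Med30 counted in the head, the head held 33.3% at 0 h and 32.99% at 72 h and the tail 17.5% and 20.0%. Without Med26, the head held 22.1% at 0 h, and at 72 h the kinase module held 18.2%, the tail 33.3% and the middle 26.6%. From expected counts rather than per length, the log2 ratio at 0 and 72 h was 1.78 and 2.46 for Cdk19 to Cdk8, -3.56 and -5.93 for Med12l to Med12, and 0.23 and -0.52 for Med13l to Med13. Depth limits Med12l, Med18 and Med31, which were under 20 CPM in every time course library.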

Other observations

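The 2 libraries of a time agreed closely for most members. The median absolute log2 difference between them was 0.13 at 0 h, 0.17 at 8 h, 0.21 at 24 h, 0.17 at 48 h and 0.14 at 72 h. The member that differed most was Med21 at 0 h (0.57), Med4 at 8, 24 and 72 h (its values are in the report) and Med12l at 48 h (0.99).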
